A study of Mus musculus with 28 samples.

Results

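Oxidative phosphorylation genes were followed in 28 RNA-seq libraries from 3 mouse cell lines grown alone or in direct contact. A gene was a member if its symbol named a subunit of complex I (Ndufa, b, c, s, v), complex II (Sdha to Sdhd), complex III (Uqcr), complex IV (Cox4 to Cox8) or ATP synthase (Atp5), or if it was one of the 13 protein genes of the mitochondrial genome. Names marked as pseudogene or related sequence (8) were left out. Of 55536 genes counted, 102 matched, and 86 of them reached a mean of 1 CPM (the count scaled by the library's total count) over the 28 libraries. These were 79 nuclear and 7 mitochondrial genes, and 10 nuclear and 6 mitochondrial genes lay under that level. The nearest genes on either side of it were Cox7a1 at a mean of 1.53 CPM and Cox8b at 0.812 CPM. The choice used only a mean over all libraries, but genes that are high in only some lines passed through the libraries of those lines. Examples are Cox7b2 (EO771) and Cox6a2 (EO771 and C2C12).

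The respiratory chain passes electrons from NADH (complex I) and succinate (complex II) through complexes III and IV to oxygen and pumps protons across the inner mitochondrial membrane, and ATP synthase (complex V) uses the proton gradient to make ATP. Complex II is wholly encoded in the nucleus, whereas the other complexes combine nuclear subunits with a few subunits from mitochondrial DNA. Skeletal muscle relies heavily on this system and carries its own isoforms of some complex IV subunits, while low oxygen is known to change complex I and complex IV subunits and the removal of mitochondria.

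The labels give EO771 as a breast cancer line, C2C12 as myotubes, the fused cells of a muscle line, and MLg as lung fibroblasts, all of wild-type genotype and kept in the same serum-containing DMEM. The 7 groups of 4 libraries each were EO771 alone, EO771 co-cultured with C2C12, EO771 co-cultured with MLg, C2C12 alone, C2C12 co-cultured with EO771, MLg alone and MLg co-cultured with EO771. In the co-cultures EO771 grew directly on the other cells, and the sources used here do not say how the lines were separated before RNA extraction. Each cell type is a single line, so a difference between cell types is a difference between lines. The series title asks about hypoxia in the effect of muscle cells on the growth of cancer cells. The labels do not say that libraries of a group came from separate cultures, so the p-values reflect only how far these libraries differ among themselves, possibly for technical reasons. In bulk RNA, fewer cells of a kind and less RNA per cell cannot be told apart.

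The library totals lay between 27.6 and 96.5 M counts, so that a count of 0 allows up to 0.0311 to 0.109 CPM (3 counts, counting error only). Only even counts occur in 5 co-culture libraries, namely R3-1, R5-1 and R6-1 of EO771 with C2C12 and R5-1 and R6-1 of MLg with EO771. In the other libraries the odd share of nonzero counts was 41.6% to 44.8%. The even-count libraries also stood apart in some annotated copies of mitochondrial genes, as given under Other observations. RNA specific to the partner line was present at 1.4% (range 0.887% to 2.16%) of its level in the partner in EO771 with C2C12, at 1.55% (1.02% to 1.89%) in EO771 with MLg, at 4.45% (3.32% to 5.58%) in C2C12 and at 8.54% (6.13% to 13.1%) in MLg. The summed level of 12 myotube markers was 374 to 5168 CPM in C2C12 alone, lowest in R3-1 and R3-2 (374 and 699 CPM), 766 to 3309 CPM in C2C12 with EO771, 94.7 to 387 CPM in EO771 with C2C12 and 9.45 to 11.1 CPM in EO771 alone. Relative to co-cultured C2C12, these markers stood in EO771 with C2C12 above the 1.4% share. Whether this was carried-over myotube RNA was not tested. The 10 fibroblast markers summed to 23756 to 30293 CPM in MLg alone and to 25124 to 29617 CPM in C2C12 alone, with Thy1 under 0.1 CPM in both, so this list did not separate these lines. The 8 epithelial markers summed to 92.0 to 96.8 CPM in EO771 alone, where 5 of them (Krt19, Cdh1, Cldn3, Cldn4 and Krt7) were under 0.1 CPM. In EO771 with C2C12 the epithelial markers summed to 181 to 258 CPM and in EO771 with MLg to 72.5 to 129 CPM. The fibroblast markers summed to 92.0 to 124 CPM in EO771 alone, 217 to 447 CPM with C2C12 and 294 to 489 CPM with MLg. The part of these shifts in the changes of EO771 below was not tested. Of the 6 macrophage markers, Ptprc, Adgre1 and Tyrobp were under 0.1 CPM in the 3 lines grown alone, but the others were not all absent. The list summed there to 34.0 to 40.6 CPM for EO771, 19.3 to 26.3 for C2C12 and 30.2 to 38.6 for MLg. Co-cultured MLg reached 38.9 to 62.9 CPM, and the other co-cultured groups lay at 21.8 to 39.8 CPM. The source of these counts was not tested.

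Of the 13 mitochondrial protein genes, 7 carried nearly all counts and 6 carried almost none. The counted genes were mt-Nd1, mt-Nd2, mt-Nd4, mt-Nd5 and mt-Nd6 of complex I, mt-Cytb of complex III and mt-Co1, the catalytic subunit of complex IV. mt-Co1 had 26771737 counts over the 28 libraries and mt-Nd1 had 12270174. mt-Co2, mt-Atp6 and mt-Nd3 had 11, 10 and 6 counts, and mt-Atp8, mt-Co3 and mt-Nd4l had 0. The 6 genes adjoin each other on the mitochondrial genome, from position 7013 to 10173 (GRCm38, a block of 3161 bases), between mt-Co1 (5328 to 6872) and mt-Nd4 (10167 to 11544).

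A run of annotated copies lies on the minus strand of chromosome 1, from 24611535 to 24616197 (GRCm38). Over their aligned length mt-Co2 and its copy Gm28661 were identical at 681 of 681 bases, mt-Atp6 and Gm10925 at 678 of 678, mt-Co3 and Gm28437 at 783 of 783, and mt-Nd3 and Gm28438 at 344 of 345. The first 90 bases of mt-Co2 and of its copy, taken from the GENCODE transcripts, are shown because a read from them cannot tell the genes apart, with 0 differences and no letter in capitals.

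mt-Co2: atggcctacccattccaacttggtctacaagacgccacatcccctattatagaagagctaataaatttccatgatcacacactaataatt
Gm28661: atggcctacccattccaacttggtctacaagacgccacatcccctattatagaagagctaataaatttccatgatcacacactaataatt

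Of all 50-base words of a gene, the share found in another annotated gene was 100% for mt-Co2, 99.5% for mt-Atp6, 99.9% for mt-Co3, 98.0% for mt-Nd3 and 98.8% for mt-Nd4l. It was 0% for mt-Nd1, mt-Nd6 and mt-Cytb, 8.19% for mt-Nd2, 7.61% for mt-Nd5, 51.1% for mt-Co1 and 62.2% for mt-Nd4. mt-Atp8 was at 0 counts with a share of 0%. Its overlap with mt-Atp6 is shorter than a 50-base word (mt-Atp8 runs from 7766 to 7969 and mt-Atp6 from 7927 to 8607). Only annotated transcripts were searched, so an unannotated copy of mt-Atp8 would not be seen. The chromosome 1 stretch between Gm10925 (ending at 24614651) and Gm28661 (starting at 24614885), the copies of its neighbours, was not compared. The share of 0% therefore does not show that mt-Atp8 lacks a copy. The sources used here do not say how reads that match several places were counted, and its part in the missing counts was not tested. The levels of mt-Co1 and mt-Nd4 are therefore uncertain. No level is read from the 6 uncounted genes, and "mitochondrial" below means the 7 counted ones. mt-Nd5 (11742 to 13565) and mt-Nd6 (13552 to 14070) overlap on opposite strands, only at their ends. The sources used here do not name the strand option used for counting, so reads from that short stretch may not be told apart.

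**Figure D1:**
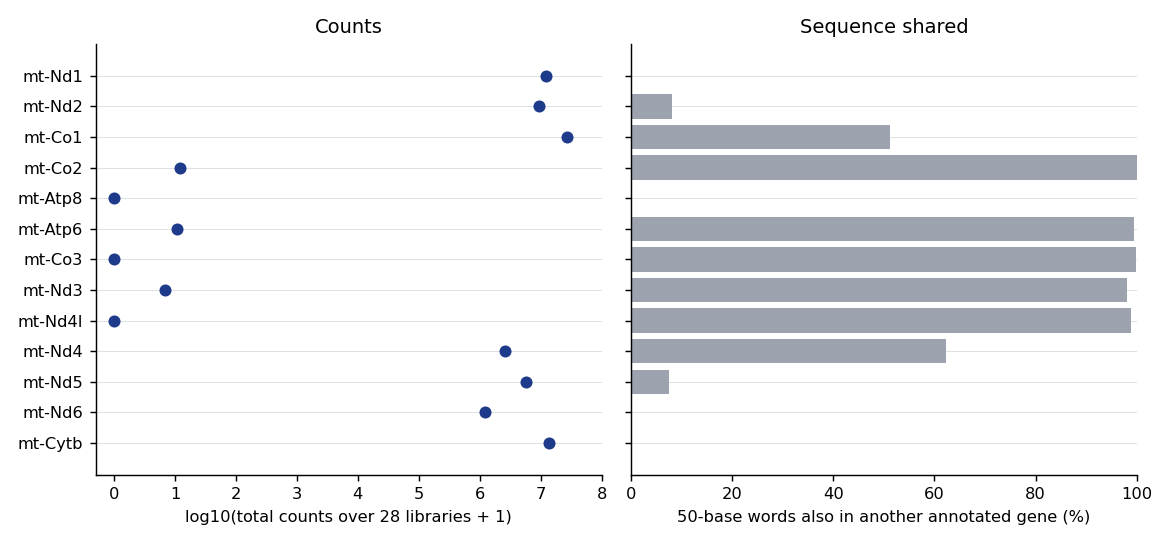
Left, log10 of the total count over the 28 libraries plus 1 for each of the 13 mitochondrial protein genes, in their order on the mitochondrial genome; right, the share of each gene's 50-base words found in another annotated gene (percent). The 6 adjoining genes from mt-Co2 to mt-Nd4l lie at 0 to 11 counts, and all of them but mt-Atp8 share 98.0% or more of their words. Unannotated copies were not searched, so the bar of mt-Atp8 does not show that it has none.

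Per kilobase of transcript, the counted mitochondrial genes stood far above the nuclear ones. In EO771 alone the level was 12722 CPM per kb for mt-Nd1, 10577 for mt-Co1 and 1063 for mt-Nd4, the lowest of the complex I genes of mitochondrial DNA. The median nuclear level was 38.8 CPM per kb in complex I, 42.5 in complex II, 69.4 in complex III, 80.0 in complex IV and 50.6 in ATP synthase, and the highest nuclear members were Cox6b1 (357) and Atp5b (314). mt-Co1 ranged from 10577 CPM per kb in EO771 alone to 16021 in MLg alone.

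The make-up of the mitochondrial sum differed between the lines. mt-Nd1 supplied 24.5% ± 2.01 (SD, n = 4) of it in EO771 alone, 12.5% ± 0.726 in C2C12 alone and 14.0% ± 0.748 in MLg alone. mt-Nd5 supplied 5.54% ± 0.528, 11.0% ± 0.897 and 8.92% ± 0.751 in the same order. mt-Nd2 gave 15.3%, 9.52% and 13.7%, and mt-Co1 gave 32.3%, 40.2% and 39.3%. For mt-Nd1 and mt-Nd5 the differences between EO771 and either host line exceeded the SD within a line.

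Summed over its members, mitochondrial RNA was a far larger and more variable share of the counts than nuclear oxidative phosphorylation RNA. The nuclear sum lay between 5519 and 8704 CPM in the 28 libraries. The mitochondrial sum was 63758, 49761, 40316 and 47265 CPM in EO771 alone (R3-1, R3-2, R5-1, R6-2), 31256, 48691, 44934 and 39604 CPM in EO771 with C2C12 (R5-1, R5-2, R6-1, R3-1), and 39045, 108855, 48395 and 87014 CPM in EO771 with MLg (R6-1, R5-1, R6-2, R7-1). R5-1 and R7-1 of EO771 with MLg stand apart, and the other libraries of the 3 EO771 groups overlap. In C2C12 alone the sum was 42512, 45240.2, 53013 and 39912 CPM (R2-1, R3-1, R3-2, R5-1), and in C2C12 with EO771 it was 37963, 50039, 39788 and 42829 CPM (R3-1, R5-1, R5-2, R6-1). In MLg alone it was 88110.2, 49636, 56732 and 58701 CPM (R3-2, R5-2, R6-1, R6-2), and in MLg with EO771 it was 55771, 49679.5, 57124 and 59935 CPM (R5-1, R6-1, R6-2, R7-1). R3-2 of MLg alone was the highest host library, and each host line's groups overlap.

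**Figure D2:**
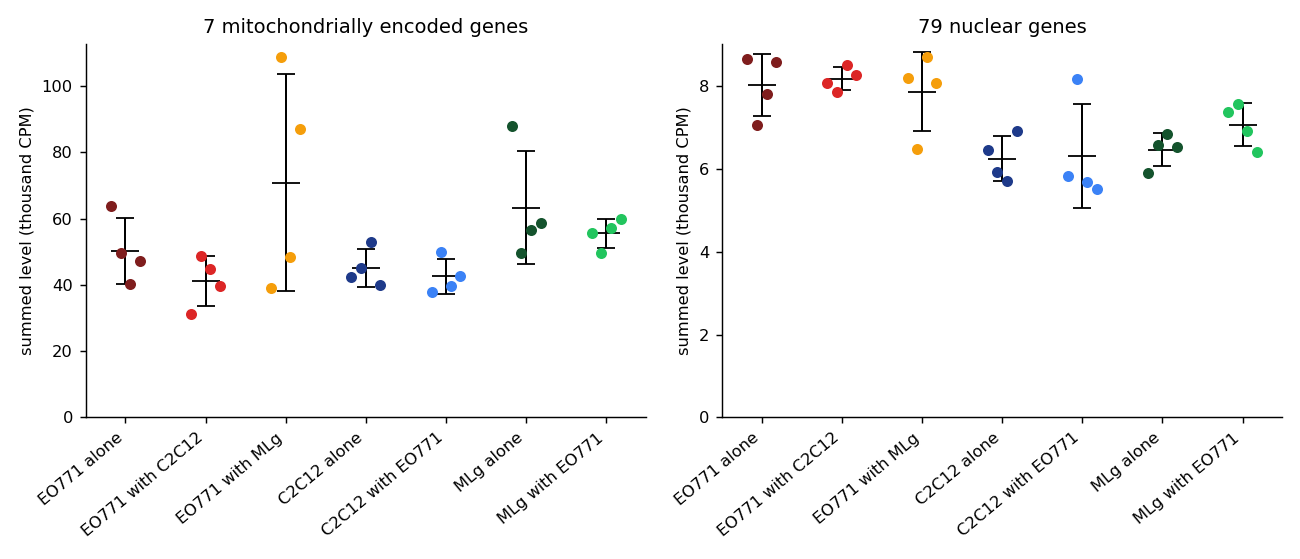
Summed CPM of the 7 counted mitochondrial members (left) and of the 79 nuclear members (right) in each library (points), with the mean and SD of each group (n = 4, axes in units of kCPM). The nuclear sums stay between 5519 and 8704 CPM, while EO771 with MLg R5-1 reaches 108855 CPM and R7-1 reaches 87014 CPM in the mitochondrial sum.

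The mitochondrial share of all counts was 5.03% ± 0.984 (SD, n = 4) in EO771 alone, 4.11% ± 0.756 with C2C12 and 7.08% ± 3.28 with MLg. It was 4.52% ± 0.566 in C2C12 alone, 4.27% ± 0.532 in C2C12 with EO771, 6.33% ± 1.70 in MLg alone and 5.56% ± 0.433 in MLg with EO771. The log2 ratio of mitochondrial to nuclear sum differed from EO771 alone by -0.32 with C2C12 and by 0.42 with MLg. These comparisons share the EO771 alone libraries. Without EO771 with MLg R5-1 and R7-1 the second difference was -0.27, and without the even-count libraries the first was -0.0027. As a score over the members, the ratio was given no test. The nuclear sum of ATP synthase was 3523 ± 247 CPM in EO771 alone, 2135 ± 164 CPM in C2C12 alone and 2183 ± 121 CPM in MLg alone. Its libraries in EO771 alone (3193 to 3747 CPM) lie above all libraries of both other lines (1960.1 to 2339 CPM). This sum is weighted to its most abundant genes, Atp5b and Atp5a1, which fell by 1.17 and 0.72 in C2C12 against EO771 on the log2 scale. Over its 16 genes the median was 0.03 there, with 9 above and 7 below 0, and -0.15 in MLg against EO771, with 5 above and 11 below. The complex II sum was flat, at 408 ± 7.25, 431 ± 18.8 and 421 ± 19.4 CPM.

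Between the lines grown alone, many members differed in both directions. Of 86 members, 25 were higher and 27 lower in C2C12 than in EO771, where 78.2% of all genes tested passed the same test, 42% higher and 36.2% lower (edgeR's quasi-likelihood test, Benjamini-Hochberg adjusted p under 0.05, used throughout). In MLg against EO771, 21 were higher and 30 lower (77.6% of all genes, 40.8% higher and 36.8% lower). In C2C12 against MLg 24 were higher and 12 lower (61.9% of all genes, 31% higher and 30.9% lower). The member shares lay below the shares of all genes in all 3 contrasts. Each pair of these contrasts shares 1 line's libraries. Nuclear complex I split into 13 higher and 11 lower in C2C12 against EO771 and 11 and 10 in MLg against EO771. ATP synthase had 3 higher and 5 lower, and 2 higher and 7 lower. In C2C12 against MLg the called members leaned one way in ATP synthase (6 higher, 1 lower) and complex II (2 higher, 0 lower, with 4 of 4 above 0), and complex I had 10 higher and 5 lower. Scaling by total counts alone turned the nuclear split of C2C12 against EO771 from 23 higher and 25 lower to 13 and 32, with the median of all genes moving from 0.12 to -0.02. It turned that of C2C12 against MLg from 24 and 10 to 12 and 17, with the median of all genes moving from -0.03 to -0.19 on the log2 scale.

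Several genes separated EO771 from both other lines. Atp5b, the catalytic beta subunit of ATP synthase, stood at 1331 ± 82.2 CPM in EO771, 532 ± 43.5 CPM in C2C12 and 577 ± 14.0 CPM in MLg (log2 difference -1.17 and -1.21, adjusted p = 2.69e-09 and 2.15e-09). Atp5a1, the alpha subunit beside it, was at 841 ± 19.4, 457 ± 13.7 and 433 ± 37.5 CPM. Uqcrq, a small subunit of complex III (chromosome 11, 53427922 to 53430831, minus strand), was at 140.4 ± 30.2, 44.8 ± 13.9 and 49.0 ± 5.79 CPM (log2 difference -1.50 and -1.52). Cox7a2l, which helps to join complexes III and IV, was at 134 ± 10.8, 56.3 ± 2.94 and 55.6 ± 4.24 CPM.

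In the other direction, Ndufv3, an accessory subunit of the NADH-binding module of complex I (ENSMUSG00000024038, chromosome 17, 31520115 to 31531331, plus strand), was at 25.3 ± 5.76 CPM in EO771, 107 ± 10.9 CPM in C2C12 and 84.7 ± 2.51 CPM in MLg (log2 difference 2.24 and 1.74, adjusted p = 2.81e-09 and 3.99e-08). Ndufa6, an accessory complex I subunit (chromosome 15, 82350140 to 82354322, minus strand), was at 18.9 ± 3.41, 64.3 ± 3.14 and 40.6 ± 3.02 CPM. Uqcrh, the hinge subunit of complex III, was at 295 ± 19.7 CPM in C2C12 against 121 ± 20.8 CPM in EO771 and 147 ± 21.0 CPM in MLg. Its libraries in C2C12 did not overlap with those of either line.

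For complex II, Sdhb, the iron-sulphur subunit, fell by 0.50 in C2C12 and by 0.94 in MLg against EO771 on the log2 scale, and Sdhc, a membrane anchor, was higher by 0.98 and 0.84. Sdha, the flavoprotein, stayed at 239 ± 16.2, 244 ± 13.4 and 247 ± 9.31 CPM. Its call in C2C12 against EO771 (0.19, adjusted p = 0.0374) had overlapping libraries. Among mitochondrial genes, mt-Nd1 was lower in C2C12 than in EO771 (log2 difference -0.95, adjusted p = 0.000693) and mt-Nd5 higher (1.02, adjusted p = 0.000357), with no overlap for either.

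The tissue-type isoforms were sparse. Cox6a2, the muscle form of Cox6a, had 3.54, 0.871, 1.31 and 6.58 CPM in the C2C12 alone libraries (R2-1, R3-1, R3-2, R5-1), 3.77 to 5.39 CPM in EO771 alone and 0 to 0.106 CPM in MLg alone. The low values in C2C12 were those of R3-1 and R3-2, the libraries with the lowest myotube markers, and that link was not tested. Cox6a1, the general form, was at 61.3 ± 9.63 CPM in EO771, 56.3 ± 9.07 CPM in C2C12 and 60.0 ± 7.61 CPM in MLg. Cox7a1, the muscle and heart form of Cox7a, reached 3.08 ± 0.979 CPM in C2C12, 1.15 ± 0.256 CPM in EO771 and 0.653 ± 0.264 CPM in MLg, against 116 ± 16.6 CPM for Cox7a2 in C2C12. Cox8b, which did not reach the level for a member, ran from 0.124 to 5.82 CPM in C2C12 alone. Cox7b2, a testis-type form of Cox7b (chromosome 5, 71442824 to 71548205, minus strand), had 11.9, 5.64, 8.05 and 8.93 CPM in EO771 alone, 0.0207 to 0.174 CPM in C2C12 alone and 2 counts in all 4 MLg alone libraries. It was the one member present in EO771 and near 0 in both hosts. Ndufa4l2 and Cox4i2, which low oxygen is known to raise in other cells, lay under 1 CPM in every library, with 0.0844 to 0.349 CPM for Ndufa4l2 in EO771 with C2C12 and 0.0880 to 0.337 CPM in EO771 alone.

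In EO771 grown on C2C12, most members did not pass the test against EO771 alone, and Ndufv3 was the exception in size. Of 86 members 5 were higher and 5 lower, all nuclear, against 33% of all genes tested (18.7% higher and 14.3% lower). By unadjusted p, 25 members lay under 0.05. By complex, 5 higher and 2 lower were of complex I, 1 lower of complex IV and 2 lower of ATP synthase, with 0 in complexes II and III. The median log2 difference was 0.02 for the nuclear members and 0.00 for all genes.

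Ndufv3 was at 29.5, 17.9, 23.5 and 30.2 CPM in EO771 alone and at 76.3, 78.0, 91.6 and 129 CPM in EO771 with C2C12 (R5-1, R5-2, R6-1, R3-1). Every library with C2C12 lay above every library alone, and EO771 with MLg (30.7, 22.4, 31.8 and 28.9 CPM) overlapped with EO771 alone. The rise was 3.51-fold (log2 1.81, SE 0.174, adjusted p = 4.79e-07). It brought EO771 to 93.7 ± 24.4 CPM, close to the co-cultured C2C12 at 101 ± 23.3 CPM. At the measured partner share of 1.4%, C2C12 RNA would add 1.41 CPM. The difference was 68.4 CPM, or 67.9% of the level in co-cultured C2C12. The myotube markers stood above the 1.4% share, so the value of 1.41 CPM may be too low for myotube RNA. In the single EO771 with C2C12 library that also held odd counts (R5-2) the value was 78.0 CPM, which was 1.57 above EO771 alone on the log2 scale when it stood for the group. That value passed the test, with the spread of the lone library assumed to be like that of the other groups. Ndufv3 shared 0.701% of its 50-base words with other genes and overlapped no other gene. The 300 bases around its RefSeq start (GRCm38.p6, chr17:31519865-31520164, plus strand, 250 before to 50 after the start) are shown because this gene carries the largest change. The word ACGTG, a form of the hypoxia response element core, is in capitals. The form GCGTG was not searched and is not marked.

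Ndufv3: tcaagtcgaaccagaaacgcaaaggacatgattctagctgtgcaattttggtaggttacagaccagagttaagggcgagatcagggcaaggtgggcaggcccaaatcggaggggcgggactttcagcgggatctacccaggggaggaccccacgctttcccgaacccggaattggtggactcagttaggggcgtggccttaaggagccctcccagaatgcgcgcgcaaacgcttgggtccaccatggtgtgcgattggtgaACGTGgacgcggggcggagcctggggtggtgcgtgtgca

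The matching windows of Ndufa4, which fell in the same comparison (chr6:11907401-11907700, minus strand), and of Cox7b2, which was present in EO771 and near 0 in both other lines (chr5:71548156-71548455, minus strand), hold ACGTG on neither strand and have no capitals. The unmarked form GCGTG occurs in the windows of Ndufv3 and Ndufa4 and, on the opposite strand, in that of Cox7b2. The windows are therefore not set apart by this core.

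Ndufa4: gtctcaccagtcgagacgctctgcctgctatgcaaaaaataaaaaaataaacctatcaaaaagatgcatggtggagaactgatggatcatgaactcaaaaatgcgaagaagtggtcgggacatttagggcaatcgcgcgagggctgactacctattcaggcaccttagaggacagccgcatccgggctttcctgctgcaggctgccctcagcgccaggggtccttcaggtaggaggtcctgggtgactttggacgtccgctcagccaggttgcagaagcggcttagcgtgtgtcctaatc
Cox7b2: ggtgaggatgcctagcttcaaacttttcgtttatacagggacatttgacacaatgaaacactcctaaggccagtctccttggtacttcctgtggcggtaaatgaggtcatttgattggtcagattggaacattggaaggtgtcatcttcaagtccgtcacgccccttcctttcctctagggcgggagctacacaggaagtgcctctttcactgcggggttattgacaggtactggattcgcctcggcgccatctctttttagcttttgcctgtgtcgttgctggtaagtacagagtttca

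Among all 64 nuclear members found in the RefSeq promoter table, 15 (23.4%) held ACGTG on either strand, against 19.7% of 27025 promoters. The share with the word GCGCA, any base, GCGC, bound by the nuclear respiratory factor NRF1, was 25% (16 of 64) against 4.78%. AAGATGGC, a YY1 word, was in 12.5% (8) against 2.88%, and CCGGAAGT, an ETS word bound by GABP, was in 7.81% (5) against 4%. These are matches of letters in a window, described and not tested. Ndufa6 was among those with the NRF1 word, and Atp5l among those with ACGTG.

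The other rises were smaller. Ndufa6 went from 21.1, 15.4, 16.6 and 22.5 CPM alone to 25.1, 25.3, 30.5 and 31.9 CPM with C2C12, with no overlap (log2 0.50, SE 0.154, adjusted p = 0.0172). Ndufa13, a complex I subunit also known as GRIM-19, went from 52.3 ± 9.92 to 74.0 ± 8.84 CPM (log2 0.42, adjusted p = 0.0282), and it shares 28.5% of its words with other genes, chiefly the overlapping Tssk6. Ndufa11 (8.88 to 14.3 CPM) and Ndufb10 (49.1 to 63.6 CPM), both of the membrane arm, were also higher, by 0.62 and 0.30 on the log2 scale. At the 1.4% share, C2C12 RNA would add 0.826 of 9.31 CPM for Ndufa6 and 1.20 of 21.7 CPM for Ndufa13. It would add 0.151 of 5.47 CPM for Ndufa11 and 0.933 of 14.6 CPM for Ndufb10. The differences were 15.8%, 25.3%, 50.7% and 21.9% of the level in co-cultured C2C12, in that order. As for Ndufv3, the added values may be too low for myotube RNA, whose part was not tested.

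Of the falls, Ndufa4, a complex IV subunit first assigned to complex I, went from 124, 74.0, 105 and 112 CPM to 74.3, 75.3, 82.9 and 67.7 CPM (log2 -0.54, SE 0.141, adjusted p = 0.00627). The low library of EO771 alone (R3-2) overlaps with the co-cultured ones. Atp5l, a membrane subunit of ATP synthase, went from 6.78, 8.13, 6.45 and 5.67 CPM to 4.89, 2.72, 4.56 and 4.31 CPM, with no overlap (log2 -0.78, SE 0.229, adjusted p = 0.0132). Ndufb2 fell by 0.62 (7.75 to 5.29 CPM), Ndufa12 by 0.35 (124 to 103 CPM) and Atp5h by 0.27 (120 to 105 CPM) on the log2 scale. Ndufa12 and Atp5l share 17.7% and 9.99% of their words with other annotated genes. Without the even-count libraries, which leaves 1 EO771 with C2C12 library, 2 of the 10 passed (Ndufv3 and Atp5l). Leaving out 1 library ended the calls of Ndufa6 and Ndufa11 (EO771 alone R3-2 or R5-1, EO771 with C2C12 R6-1 or R3-1, highest adjusted p = 0.0664 and 0.12), Ndufa13 (alone R3-2 or R5-1, with C2C12 R3-1, 0.104), Ndufb10 (any but alone R6-2 and with C2C12 R3-1, 0.159) and Atp5h (any but alone R3-2 and R5-1 and with C2C12 R6-1, 0.129), and of no other member of the 10.

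**Figure D3:**
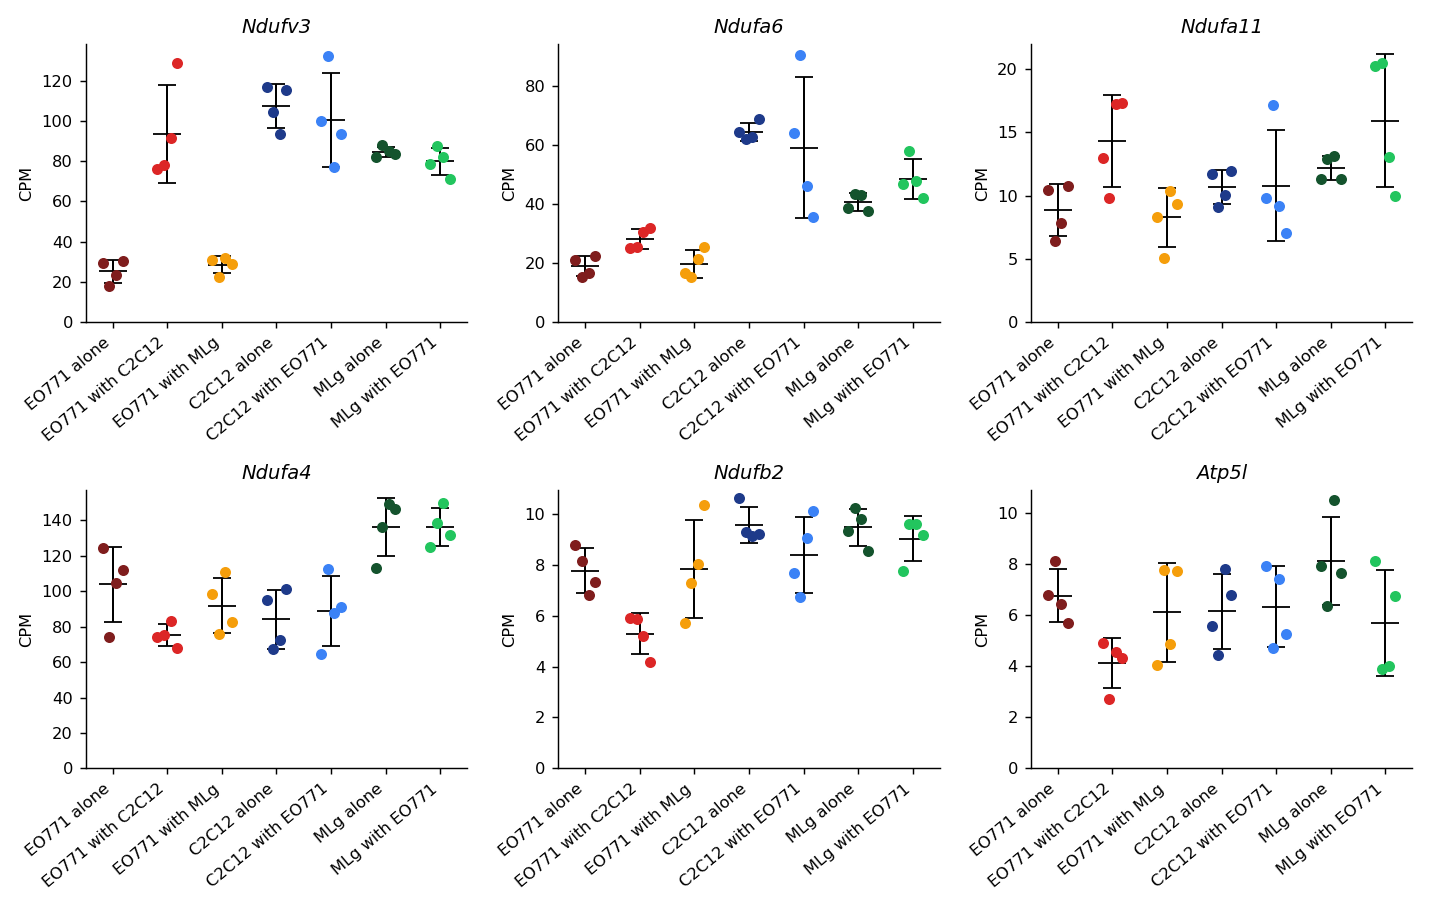
CPM of Ndufv3, Ndufa6, Ndufa11, Ndufa4, Ndufb2 and Atp5l in each library of the 7 groups (points), with the mean and SD of each group (n = 4). Ndufv3 spans 17.9 to 30.2 CPM in EO771 alone and 76.3 to 129 CPM with C2C12, near its level in the host lines.

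The 7 mitochondrial genes were lower in EO771 with C2C12 than alone by 0.19 (mt-Nd4) to 0.56 (mt-Nd6) on the log2 scale, and 0 of them passed. mt-Nd1, the closest, was at 14224, 11559, 10617 and 12299 CPM alone and at 7179.9, 10019, 10992 and 6876 CPM with C2C12 (log2 -0.54, SE 0.257, adjusted p = 0.115). R6-1 and the lowest library alone overlap. The median was -0.45. Without a filter on low counts mt-Nd1, mt-Nd2, mt-Nd5 and mt-Nd6 passed.

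In EO771 grown on MLg, 1 of 86 members passed against EO771 alone, where 9.59% of all genes did (5.99% higher and 3.6% lower). This comparison uses the same EO771 alone libraries as the one before it. Cox7a2l was at 149.8, 126, 128 and 132 CPM alone and at 119, 97.6, 109 and 91.9 CPM with MLg, with no overlap (log2 -0.35, SE 0.105, adjusted p = 0.0435). Its call ended under 7 of 11 other settings and when any library but EO771 with MLg R6-1 was left out. All 7 mitochondrial genes had higher means, by 0.45 (mt-Co1) to 0.92 (mt-Nd6), and 0 passed (adjusted p = 0.186 to 0.342). mt-Nd6, on the other strand of the mitochondrial genome, was at 526, 2878, 647 and 1166 CPM against 977, 779, 521 and 554 CPM alone. R5-1 and R7-1 were the high libraries, as in the sum. Ndufv3 did not pass (28.5 ± 4.2 against 25.3 ± 5.76 CPM).

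Between the co-cultures, EO771 with C2C12 against EO771 with MLg, 4 nuclear members were higher and 4 lower and 5 mitochondrial ones lower (27.7% of all genes passed, 15% higher and 12.7% lower). Both groups also stand in the comparisons with EO771 alone above. Ndufv3 led the rises (log2 1.63, SE 0.173, adjusted p = 2.21e-06), followed by Ndufa11 (0.71), Ndufa6 (0.44) and Ndufa8 (0.39). The falls were Ndufb2 (-0.65), Atp5l (-0.65), Atp5g1 (-0.45) and Ndufa12 (-0.26). Atp5g1, which encodes the proton-carrying ring subunit, was at 109 ± 13.0 CPM with C2C12 and 141 ± 15.7 CPM with MLg, and the other Atp5g genes did not pass. mt-Nd6 (-1.48), mt-Nd5 (-1.10), mt-Nd1 (-1.05), mt-Nd2 (-1.0) and mt-Cytb (-0.85) were lower, all with overlapping libraries. Without EO771 with MLg R5-1 and R7-1, 0 mitochondrial members passed, as without the even-count libraries, and the difference in the log2 ratio of sums went from -0.74 to -0.05. Leaving out 1 library ended the calls of Ndufa6, Ndufa8, Ndufa12 and Atp5l in 5 of 8 cases each, of mt-Cytb in 4, of Ndufa11 in 3, of Atp5g1 in 1 (EO771 with C2C12 R3-1) and of mt-Nd6 in 1 (EO771 with MLg R5-1), with adjusted p of up to 0.164. Without EO771 with C2C12 R6-1 and R3-1, 8 and 6 members passed. The calls of Ndufb2, mt-Nd1, mt-Nd2 and mt-Nd5 held without each library in turn. Ndufv3 passed under all 11 settings tried and without each library in turn.

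**Figure D4:**
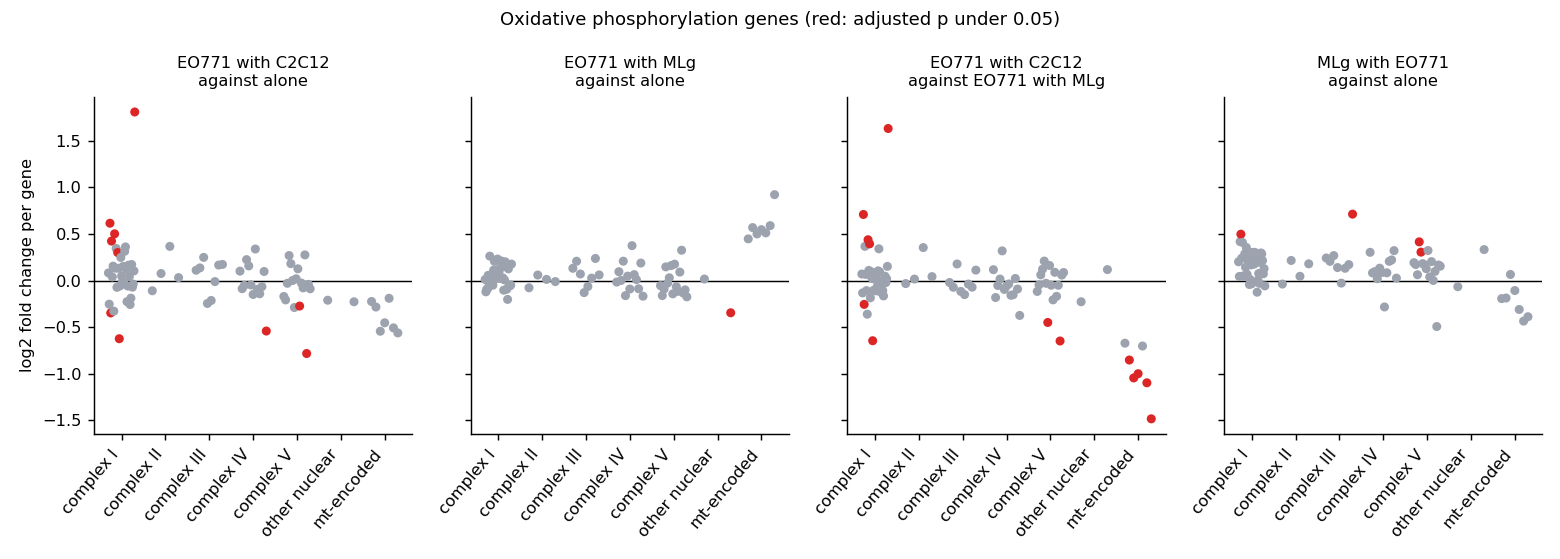
Log2 fold change of each member (points, red where the adjusted p was under 0.05) by complex in 4 comparisons, with Cox7a2l and Atp5s as other nuclear members and Cox7b2 not drawn. The 7 mitochondrial members lie between -0.56 and -0.19 in EO771 with C2C12 against alone and between 0.45 and 0.92 in EO771 with MLg against alone, and Ndufv3 stands apart at 1.81 in the first.

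In C2C12 myotubes, 0 of 86 members passed between co-culture with EO771 and growth alone, against 2.68% of all genes (2.58% higher and 0.0962% lower). By edgeR, 1 member had an unadjusted p under 0.05, and DESeq2 also called 0. The median log2 difference was -0.06 for the nuclear and -0.14 for the mitochondrial members. Atp5b was at 546, 506, 489 and 586 CPM alone and at 496, 732, 538 and 589 CPM with EO771, and Ndufv3 at 107 ± 10.9 and 101 ± 23.3 CPM. R5-1 of C2C12 with EO771 was the highest library for both genes, and the groups overlap.

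In MLg fibroblasts, 5 of the 85 members tested were higher with EO771 and 0 lower, against 14.7% of all genes (9.89% higher and 4.81% lower). The nuclear members leaned upward, with 68 of 78 above 0 and a median of 0.17, while 6 of 7 mitochondrial genes were below 0 (median -0.19). The median of all genes was 0.00. EO771 RNA is present in these libraries and several members are higher in EO771 than in MLg, so a value for EO771 RNA is given with each gene.

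Uqcrq was at 45.6, 56.8, 50.1 and 43.8 CPM in MLg alone and at 86.2, 89.2, 74.7 and 65.5 CPM with EO771, with no overlap (log2 0.71, SE 0.116, adjusted p = 0.00139). The difference was 29.9 CPM, and EO771 RNA at its measured share would add 12.5 CPM. With partner counts subtracted the difference was 0.62 on the log2 scale and passed. The call ended with all 28 libraries in 1 fit (log2 0.69). Ndufa12 was at 60.9, 60.2, 61.4 and 41.6 CPM alone and at 85.7, 79.2, 74.2 and 72.0 CPM with EO771 (log2 0.50, adjusted p = 0.0165), with 9.85 CPM of a difference of 21.8 CPM at the EO771 share. Atp5d and Atp5e, the delta and epsilon subunits of the rotor stalk of ATP synthase, were higher by 0.42 and 0.31 with overlapping libraries. The EO771 share came to 9.26 of 21.5 CPM for Atp5d and 4.15 of 10.7 CPM for Atp5e. Cox7b2 went from 2 counts in all to 1.18, 0.521, 0.572 and 1.06 CPM (145 counts), at a mean of 0.836 CPM. The EO771 share of its level in EO771 with MLg (9.83 CPM) comes to 0.839 CPM. The calls of Ndufa12, Atp5d and Atp5e ended with partner counts subtracted and without the even-count libraries. The number of calls ran from 2 (without MLg with EO771 R5-1) to 22 (without R7-1), and was 3 without R6-1 of either group.

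The difference between the C2C12 and the MLg response was tested in 1 fit of the 16 host libraries, where 0 members were higher and 2 lower (1.84% of all genes passed, 0.778% higher and 1.06% lower). These were Cox7b2 and Cox6a2, both near 0 in MLg alone, with log2 values of -4.94 and -3.90. Cox6a2 had 17 counts in MLg alone and 76 with EO771, against 826 counts in C2C12 alone and 254 with EO771. A fitted fold on such counts depends on the prior count and is not read as a size. The nuclear median was -0.19, with 70 of 79 below 0. Uqcrq, called in MLg, did not pass here (log2 -0.72, adjusted p = 0.411), so a difference between the hosts is not shown for it.

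Other mitochondrial gene lists set the members in context, and the background shares above apply to them. The lists, like the members, were chosen with earlier results of these data known, so their counts are a description only. In EO771 with C2C12 against alone, the list of 8 low-oxygen and mitophagy-linked genes moved far more than the members, with 6 higher and 1 lower and a median of 0.95. Bnip3, a receptor for the removal of mitochondria, rose from 3.42 ± 0.574 to 33.3 ± 2.07 CPM (log2 3.21, adjusted p = 3.59e-09), and its relative Bnip3l from 39.9 ± 2.61 to 175 ± 8.31 CPM (2.06). Higd1a, a respiratory chain factor induced by low oxygen, rose from 68 ± 12.1 to 248 ± 13.8 CPM (1.79) and Pdk1, which restrains entry of pyruvate into the citric acid cycle, from 65.4 ± 1.54 to 159 ± 10.6 CPM (1.20). In co-cultured C2C12, Bnip3, Bnip3l, Higd1a and Pdk1 stood at 101, 176, 117 and 255 CPM. At the 1.4% share, C2C12 RNA would add 1.41, 2.47, 1.64 and 3.57 CPM in EO771. These values may be too low for myotube RNA, whose part was not tested. Chchd4, an import factor of the intermembrane space, fell by 0.65 on the log2 scale (57.9 to 38.9 CPM). In EO771 with MLg against alone 0 of the 8 passed.

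Genes that express mitochondrial DNA leaned downward in EO771 with C2C12, with 0 of 27 higher and 15 lower and a median of -0.31. Elac2, which trims mitochondrial tRNAs, fell by 0.68 (85.4 ± 3.12 to 55.9 ± 6.93 CPM, adjusted p = 0.000109) and Fastkd2, an RNA-binding factor of the mitochondrial ribosome, fell by 0.65 (47.9 to 32.1 CPM) on the log2 scale. Tfam, the packaging factor of mitochondrial DNA, and Polrmt, its RNA polymerase, passed at -0.30 and -0.29, and neither call was stable. Tfam's ended when any library but EO771 alone R3-2 and EO771 with C2C12 R5-2 was left out (log2 -0.30 to -0.26) and under 4 other settings. Polrmt's ended when any library but EO771 with C2C12 R5-2 was left out (log2 -0.32 to -0.23) and under 8 other settings, DESeq2 among them. Of 77 mitochondrial ribosomal proteins 24 were lower and 3 higher (median -0.16), led by Mrps5 (-0.53) and Mrpl21 (-0.52), with Mrps34 (0.93) and Mrpl52 (0.64) the other way. Both of the latter calls ended without EO771 alone R3-2 (0.75 and 0.47) or R5-1 (0.85 and 0.59), and Mrpl52's also without EO771 with C2C12 R3-1 (0.57). Pprc1, a coactivator of mitochondrial gene expression, fell by 0.65 (259 to 173 CPM) and Myc fell by 0.44 (707 to 548 CPM), 2 of 7 regulators of mitochondrial growth. Of 20 citric acid cycle and carrier genes 4 were lower, among them Dld (-0.35) and Suclg2 (-0.33). Of 43 assembly factors 3 were higher and 8 lower, with Ndufaf3 (3.99 to 8.25 CPM, log2 0.97) and Cox14 (0.60) up and Cox16 (-0.83) and Coa7 (39.7 to 24.2 CPM, -0.79) down. The call of Cox14 ended without EO771 alone R3-2 or R5-1 or EO771 with C2C12 R6-1 or R3-1 (log2 0.42 to 0.58). That of Cox16 ended without EO771 alone R3-1 or R6-2 or EO771 with C2C12 R5-1, R6-1 or R3-1 (-0.82 to -0.66), with total counts, with 28 libraries in 1 fit and with partner counts subtracted. Against 33% of all genes, the share called was 55.6% for mitochondrial DNA expression and 35.1% for the ribosomal proteins. It was 28.6% for the regulators, 20% for citric acid cycle and carrier genes and 25.6% for assembly factors. Scaling by total counts gave 11 lower calls against 15 for mitochondrial DNA expression and 16 against 24 for the ribosomal proteins. Without the even-count libraries, with 1 library left in the group, the numbers were 1 and 2, at medians of -0.28 and -0.19.

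**Figure D5:**
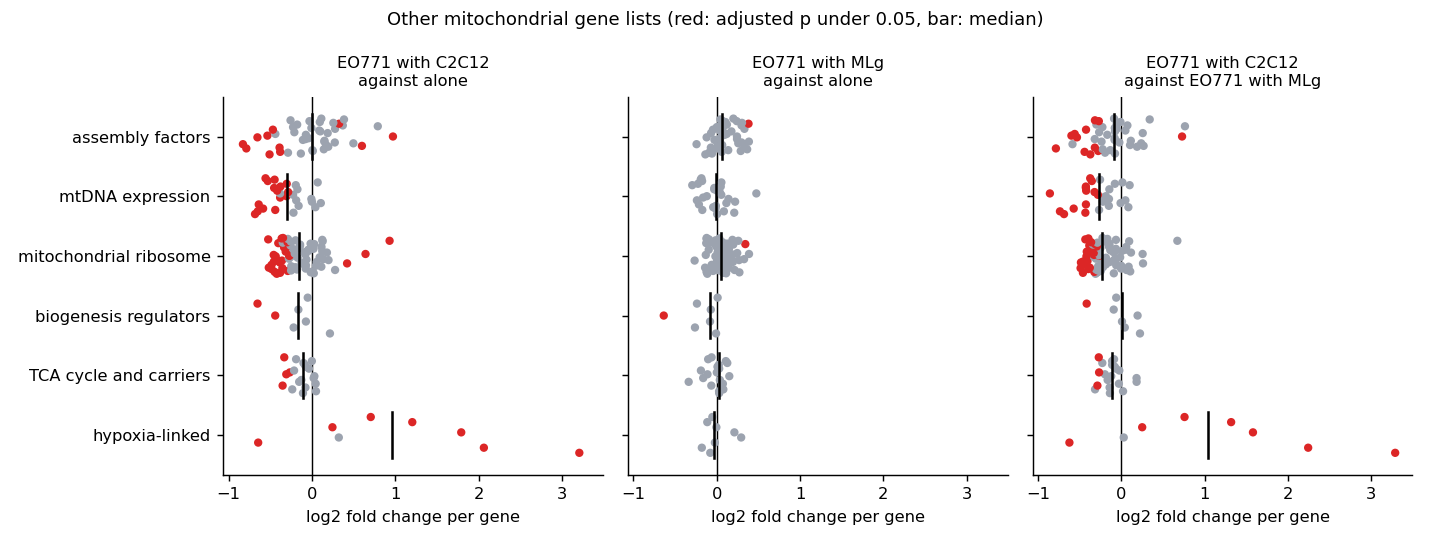
Log2 fold change of each gene (points, red where the adjusted p was under 0.05) of 6 other mitochondrial lists in the 3 comparisons among EO771 groups, with a bar at the list's median. In EO771 with C2C12 against alone the hypoxia-linked list has its median at 0.95 and the mitochondrial DNA expression list at -0.31.

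In EO771 with MLg against alone the same lists held 3 calls, Timmdc1 (0.38), Mrps25 (0.34) and Myc (-0.64). Timmdc1's call ended without EO771 alone R3-2, R5-1 or R6-2 or EO771 with MLg R5-1 or R6-2 (log2 0.34 to 0.41). Mrps25's ended without any EO771 alone library or EO771 with MLg R6-1 or R6-2 (0.28 to 0.39). In C2C12 with EO771 against alone they held 2, Pnpt1 (23.0 to 44.4 CPM, log2 0.89) and Foxred1 (21.0 to 34.6 CPM, 0.67). Both calls ended with partner counts subtracted (log2 0.67 and 0.30), and EO771 alone had 229 and 217 CPM of these genes. Foxred1's also ended without the C2C12 R3 libraries (0.63). In MLg with EO771 the higher genes included Cycs, which encodes cytochrome c (66.0 ± 1.24 to 103 ± 9.16 CPM, log2 0.67). Also higher were Lyrm7 (0.90) and Uqcc2 (0.63), both complex III assembly factors, and Pnpt1 (0.52). Higd1a and Pdk1 fell by 0.45 and 0.41. Of 77 ribosomal proteins 9 were higher and 1 lower, a share of 13.0%, near the 14.7% of all genes. With partner counts subtracted 0 of the 9 ribosomal proteins passed, and Lyrm7 stood at -0.04. The call of Lyrm7 also ended without MLg alone R6-1 (0.83), and that of Higd1a without R6-1 or R6-2 of either MLg group (-0.45 to -0.39). Without the even-count libraries Uqcc2 (0.47), Higd1a (-0.53) and Pdk1 (-0.43) did not pass. Between the lines alone, 59 of the 77 ribosomal proteins were lower in C2C12 than in EO771 and 59 in MLg than in EO771, with 5 and 4 higher. The shares called were 83.1% and 81.8%. Of all genes, 78.2% and 77.6% were called, with 36.2% and 36.8% lower.

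Across the 28 libraries the gene whose level was most like the summed mitochondrial level (log2 CPM, Pearson r over 13434 genes, a description across groups that differ in line and depth) was mt-Rnr2, the large mitochondrial ribosomal RNA (r = 0.877). It was followed by Kcnq1ot1, a long nuclear antisense RNA (0.823), Gm15708 (0.814), AC154200.1 (0.811) and Gm44686 (0.745). mt-Rnr2 ran from 396 to 6559 CPM. Kcnq1ot1 ran from 1.54 to 26.1 CPM.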

How the data were processed

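RNA in 28 libraries was sequenced as poly(A)-selected, stranded libraries per the labels' protocols. The deposited values are raw gene counts, 1 table per library with 55536 Ensembl identifiers. Per the submitters' processing notes, the tools were STAR 2.7.10a, featureCounts, Subread 2.0.1, fastp and DESeq2, with no role or order given. The sources used here do not name the build, annotation, multimapping or strand options. All identifiers were named with GENCODE M21 (GRCm38).

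CPM used each library's total count. Tests used edgeR 4.0.16 (R 4.3.3) with TMM scaling, filterByExpr (count minimum 10, total 15), quasi-likelihood F tests and p-values adjusted over every tested gene (Benjamini-Hochberg), with calls at adjusted p under 0.05. The 12 EO771 libraries, the 8 C2C12, the 8 MLg, the 16 host libraries and the 12 libraries of lines grown alone each had 1 fit. SE is the log2 fold change divided by the root of F. On simulated counts, a log2 change of 1 was recovered in 100 of 100 genes in the comparisons of EO771 with C2C12, C2C12 and MLg. A change of 0.5 was recovered in 44, 50 and 47 of 100 genes, among 15618, 16685 and 16883 tested. The simulation gave every gene the same fixed spread and changed only genes above a minimum CPM. These shares therefore do not apply to sparse genes or to genes that vary more between libraries, such as the mitochondrial ones.

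The members and lists were chosen with earlier results of these data known. Named were the 13 mitochondrial genes, isoform sets, complex II, core subunits, per comparison up to 3 nuclear rises and 3 falls with calls and without overlap, and up to 2 called genes per direction of each other list. Also named were the 5 genes most like the mitochondrial sum. Others, such as Ndufa11, Ndufb10, Atp5h, Ndufa8, Atp5d, Atp5e, Uqcrh, Higd1a, Pdk1, Tfam, Polrmt, Timmdc1 and Mrps25, were chosen after their values were seen. The labels do not explain the R number. In C2C12 with and without EO771, same-numbered libraries deviated together in all 4 pairs (correlation 0.374 to 0.675 across genes), which was taken as pairing. These pairs cover only R3 and R5 and share libraries, so they are not independent of each other. The main tests, that of C2C12 included, still held no term for the R number, which was a block only as an alternative. The tables of EO771 with C2C12 (R5-1 and R5-2) carry each other's name, and the sample record was followed. Alternatives were other scalings (DESeq2 1.42.0 and its size factors, total counts, no mitochondrial genes), filters, fits and left-out libraries.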

Additional observations from a re-analysis of the deposited data

Results flagged for a closer look

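Of 189 groups of 4 libraries checked, 8 held a library whose gap to its nearest neighbour exceeded the critical share of the group's range, and chance flags about 1 in 20 groups. R5-1 of C2C12 with EO771 was high in the summed nuclear members (8179 CPM), in Atp5h (177 CPM) and in mt-Nd6 (1462 CPM). R6-2 of MLg alone was low in Ndufa12 (41.6 CPM), a gene called higher in MLg with EO771. R6-2 of MLg with EO771 was apart in Atp5h (154 CPM), R2-1 of C2C12 alone in Ndufb2 (10.6 CPM) and R3-1 of EO771 with C2C12 in Cox7a2l (143 CPM). For Cox7b2 in MLg alone, R3-2 was the library with any count (0.0287 CPM, from 2 counts).

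The responses of C2C12 and MLg to EO771 differed by test for Cox6a2 (log2 -3.90, adjusted p = 0.0351) and Cox7b2 (log2 -4.94, adjusted p = 0.0227, both edgeR's quasi-likelihood test). Both rest on near-zero counts in MLg alone, and EO771, which has both genes at higher CPM, supplied 6.13% to 13.1% of its RNA level in MLg with EO771. In MLg the EO771 share came to 0.357 CPM for Cox6a2, against a difference from MLg alone of 0.369 CPM. For Cox7b2 it came to 0.839 CPM, against a difference of 0.828 CPM. With partner counts subtracted neither gene passed, and the part of EO771 RNA was not tested further.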

How the results depend on the processing

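The number of members called in EO771 with C2C12 against alone (10) was 16 without a filter on low counts, 2 without the even-count libraries, 6 with all 28 libraries in 1 fit and 18 with the R number as a replicate block. In EO771 with MLg against alone (1) it was 0 with size factors by median ratio, without mitochondrial genes in the normalization, without the even-count libraries, with 28 libraries, with partner counts subtracted and with the block, 7 without a filter and 2 once R5-1 and R7-1 of EO771 with MLg were left out, and 0 to 3 leaving out 1 library. Between the co-cultures (13) it was 1 without the even-count libraries and 6 to 14 leaving out 1. In MLg (5) it was 10 without a filter, 2 without the even-count libraries, 2 with 28 libraries, 1 with partner counts subtracted, 23 with the block and 2 to 22 leaving out 1. For the difference of the responses (2) it was 0 without the even-count libraries, 0 with partner counts subtracted, 1 with the block and 0 to 7 leaving out 1. The block changed no call in C2C12, where it kept 0. In the other comparisons same-numbered libraries deviated together less, and the R number was not taken as pairing. The correlation was 0.072 to 0.132 in EO771 with C2C12 against alone, 0.065 to 0.331 in EO771 with MLg against alone and -0.325 to 0.221 in MLg. The difference in the log2 ratio of sums moved to -0.0027 in EO771 with C2C12 (no even-count libraries), to -0.27 in EO771 with MLg and -0.0516 between the co-cultures (no R5-1 and R7-1), and to 0.17 in C2C12 without its R3 libraries. With partner counts subtracted, Foxred1 (-0.14), Lyrm7 (-0.0402) and Dld (-0.0247) turned below 0 in MLg. The even-count setting leaves 1 library of EO771 with C2C12; the cause of the other changes was not tested. Of 10 members called in EO771 with C2C12, 2 kept the call in all settings; between the lines alone it was 35 of 52, 39 of 51 and 18 of 36.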

Other observations

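The copy of mt-Nd3 on chromosome 1, Gm28438, carried counts where mt-Nd3 itself had 6 in all. It stood at 47.8 ± 16.5 CPM (SD, n = 4) in EO771 alone and 79.1 ± 47.4 CPM in EO771 with MLg, where R5-1 was highest at 145 CPM, as it was in the mitochondrial sum. Gm29216, in the same run of copies, stood at 2.02, 3.11 and 3.15 CPM in EO771 with C2C12 R5-1, R6-1 and R3-1. In MLg with EO771 R5-1 and R6-1 it stood at 4.14 and 4.83 CPM. These are the 5 even-count libraries, and all others lay at 0.140 to 0.572 CPM. Gm28661 was split alike, at 0.928 to 1.78 against 0.0810 to 0.309 CPM. The cause was not tested.

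In EO771 with C2C12, Sdhc was above EO771 alone in every library (27.8 to 42.2 CPM alone, 45.9 to 56.3 CPM with C2C12) without passing the adjusted test (log2 0.37, adjusted p = 0.0509 by edgeR). The complex II sum likewise did not overlap between the groups, by a narrow gap (400.7 to 417.6 CPM alone, 418.4 to 431.3 CPM with C2C12). CPM uses total counts, and with that scaling the median of all genes was itself 0.075 higher with C2C12 on the log2 scale. The share of all genes without overlap was not worked out, so no rise of complex II is read from this.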
